A study of Prunus persica with 8 samples.

Results

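In lateral shoot tips, 171 of 21162 peach genes on scaffolds 1 and 4 to 8 were taken as lower in weeping than standard trees. More genes were lower by less: every weeping library lay below every standard library in 1140 of the 12429 genes that could have been taken. The deposited table holds 27864 genes, and scaffold 3, which carries the weeping locus, and scaffold 2 were not used. The mean differed at least 3-fold in these 171 genes, but the gap between the libraries of the habits was often narrow. They were selected on their measured levels, among the genes on scaffolds 1 and 4 to 8 of the deposited table, in CPM, the reads of a gene scaled to a common total of reads in genes per library. The mean over standard trees was 2 CPM or more and at least 3 times the mean over weeping trees, and every weeping library lay below every standard library. At least 50% of the gene's reads mapped to 1 place in the genome, and the 200 genes of highest mean CPM on these scaffolds were left out. Because these conditions used the difference between the habits, the size of that difference is a description of how the genes were chosen and not a finding. The order of trees within a habit and the length and position of the genes along each scaffold were not used.

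Branches of weeping peach trees arch and hang toward the ground, and those of standard trees grow up and out. The 4 weeping trees, numbered 1 to 4, and the 4 standard trees, numbered 7 to 10, were mature, field-grown trees of 1 segregating F2 population, so they are breeding material and not cultivars. From each tree, 4 shoot tips about 4 cm long gave 1 library of 50 bp unpaired reads, and the submitters call the trees biological replicates. The table gives no gene names, and 0 of its identifiers matched the RefSeq gene table, so the tissue label was not checked against marker genes and most genes are given by position.

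The weeping habit in peach is a recessive trait that maps to scaffold 3, where loss of a gene for a SAM-domain protein, WEEP, underlies it. Weeping F2 trees therefore share the haplotype of the weeping allele around that locus on both chromosomes, whereas standard F2 trees may carry it on one chromosome or not at all. Genes on other scaffolds are inherited independently of it, so each tree carries its own mixture of parental alleles there. A shoot tip holds the apical meristem, young leaves and the growing stem. In such bulk tissue, fewer cells of a type and less RNA per cell cannot be told apart.

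Weeping libraries held 17011614 to 21584724 reads in genes, and standard libraries held 17773493 to 19865152. A value of 1 CPM thus stood for 17.0 to 21.6 reads. Weeping trees 1 and 2 and all 4 standard trees were sequenced in lane 6, and weeping trees 3 and 4 in lane 8, per the column names. The share of reads that mapped to 1 place was 95.1 to 95.2% in weeping libraries and 94.1 to 94.6% in standard libraries.

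Of the 21162 genes on these 6 scaffolds, 12429 met the limits on level, mapping and abundance and could have been taken. Every weeping library lay below every standard library for 1140 of them (9.17%), and the standard mean was at least 3 times the weeping mean for 218 (1.75%). Both held for the 171 members, while 47 genes past the 3-fold limit had overlapping libraries. The share of reads mapping to 1 place removed 11 genes that met every other condition, and no gene was lost for its abundance. With the habits exchanged, the same limits took 23 genes.

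Per gene, the ratio of the standard mean to the weeping mean had a median of 4.12 over the members, with quartiles at 3.47 and 5.19 and a range of 3.00 to 13.7. The same ratio had a median of 0.990 over all 12429 genes. It lay under 4 in 79 members, between 4 and 6 in 64, between 6 and 10 in 26, and at 10 or more in 2. The members were modestly expressed: their mean level had a median of 2.22 CPM in weeping trees (0.251 to 114) and 8.72 CPM in standard trees (2.02 to 526), and the other genes had a median of 24.5 CPM in standard trees. Per length, the median was 1.14 RPKM (reads per kb of gene span and mapped library total) in weeping trees and 4.95 RPKM in standard trees. The gap between the habits was often narrow, since the lowest standard library was less than 1.5 times the highest weeping library in 89 members and at least 2 times in 33.

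**Figure D1:**
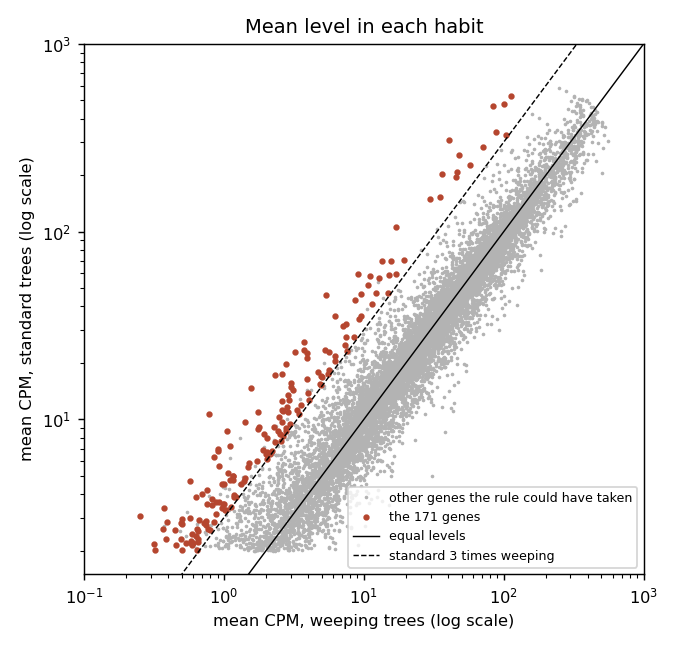
Mean CPM in weeping trees against mean CPM in standard trees, both on log scales, for the genes on scaffolds 1 and 4 to 8 that could have been taken. The 171 members lie on or past the 3-fold line. Other genes past that line had libraries that overlapped between the habits.

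Summed over the members, weeping trees 1, 2, 3 and 4 had 525, 944, 1586 and 2633 CPM, against 8724, 6615, 4878 and 5333 CPM in standard trees 7, 8, 9 and 10. The weeping sums thus differed 5.01-fold among themselves and the standard sums 1.79-fold. The mean sum was 1422 ± 917 CPM in weeping trees and 6388 ± 1723 CPM in standard trees (SD, n = 4 each), a standard-to-weeping ratio of 4.49. The median member stood at 0.989, 1.58, 2.51 and 2.82 CPM in weeping trees 1, 2, 3 and 4, against 10.1, 10.4, 6.79 and 7.05 CPM in standard trees 7, 8, 9 and 10. Weeping tree 1 was lowest and weeping tree 4 highest in both summaries.

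**Figure D2:**
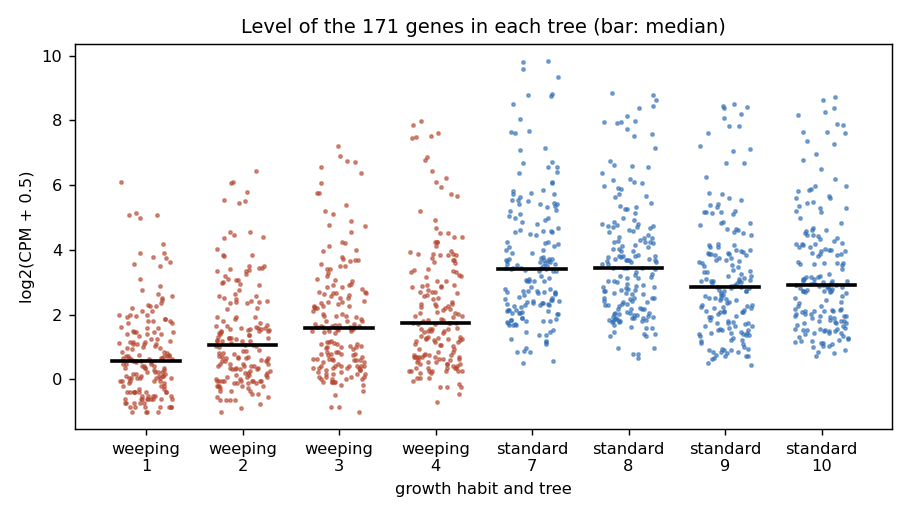
Level of each of the 171 members as log2(CPM + 0.5) in each tree (points), with the median of each tree as a bar. In CPM the medians run between 0.989 and 2.82 CPM in the 4 weeping trees and between 6.79 and 10.4 CPM in the 4 standard trees.

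The spread among weeping trees lay partly between the sequencing lanes and partly within them. Weeping trees 1 and 2, in lane 6, had sums of 525 and 944 CPM, with a mean of 735 CPM. Weeping trees 3 and 4, in lane 8, had sums of 1586 and 2633 CPM, with a mean of 2109 CPM. The sums thus also rose within each lane. Within lane 6 alone the ratio of standard to weeping had a median of 6.61 over the members (2.99 to 75.6), and against the lane 8 weeping trees it had a median of 3.02 (1.96 to 15.0). Over all genes that could have been taken these medians were 1.01 and 0.979. The conditions placed every weeping library below every standard library, so a difference within lane 6 was fixed by the choice of genes and nothing is read from it. In 160 members (93.6%) the lane 6 weeping trees had the lower mean, against 58.9% of the other genes. Lane and tree cannot be told apart among the weeping libraries.

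A fit over all genes was used only for scale. edgeR's quasi-likelihood test with Benjamini-Hochberg adjustment at 0.05 called 141 of the 171 members lower in weeping trees, against 6.18% of the 18520 genes tested and 6.39% of the 12427 of them that could have been taken. Since the members were taken on the same contrast, nothing is read from this count. With a tree left out, this count and the share of all tested genes called lower moved together. They were 3 and 0.059% without weeping tree 2, 57 and 1.23% without weeping tree 1, and 49 and 1.11% without weeping tree 3. Without standard tree 7 they were 46 and 1.4%, without standard tree 8 29 and 0.741%, and without standard tree 10 53 and 1.34%. They were higher without weeping tree 4, at 158 and 12.1%, and without standard tree 9, at 142 and 8.65%.

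Within each habit the members moved together over trees. Each gene's log2(CPM + 0.5) was centred on its habit mean, and a principal component was taken over the 8 trees. The first component held 61.6% of this within-habit variance in the members and the next 15.7%, whereas in the 12258 other genes the first 2 components held 28.2% and 23.6%. Along the members' first component weeping trees 1, 2, 3 and 4 had weights of -0.64, -0.20, 0.26 and 0.58, and standard trees 7, 8, 9 and 10 had 0.26, 0.08, -0.23 and -0.11. Weeping trees 1 and 4 lay at its ends. The other genes' first component had weights of -0.47, -0.05, 0.05 and 0.48 in weeping trees 1, 2, 3 and 4. In standard trees 7, 8, 9 and 10 its weights were 0.36, 0.19, -0.61 and 0.06. Weeping tree 4 and standard tree 7 were thus high, and weeping tree 1 and standard tree 9 low, in the other genes too. The direction of this tree pattern was therefore not particular to the members. Taken alone, the weeping trees had 76.7% of their variance on 1 component in the members and 47.0% in the other genes. The standard trees had 51.1% and 36.0% on 2 components in the members, close to the 45.5% and 39.2% in the other genes. The share on 1 component that set the members apart thus came mainly from the weeping trees.

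The order of the weeping trees recurred from gene to gene. Weeping tree 4 had the highest level of its habit in 110 members (64.3%), against 29.1% of the other genes, and weeping tree 1 the lowest in 124 (72.5%), against 36.6%. The full order of trees 4, 3, 2 and 1, high to low, held in 63 members (36.8%) and in 7.97% of the other genes. Both lane 8 trees lay above both lane 6 trees in 103 members (60.2%) and in 19.4% of the other genes. The median member lay 0.71 log2 units under its weeping mean in tree 1 and 0.62 above it in tree 4.

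Among standard trees, 2 trees shared the top. Standard tree 7 was highest in 77 members (45.0%, against 29.9% of the other genes) and standard tree 8 in 74 (43.3%, against 22.2%). Standard tree 9 was lowest in 98 (57.3%, against 34.6%) and standard tree 10 in 44 (25.7%, against 11.6%). Trees 7 and 8 both lay above trees 9 and 10 in 85 members (49.7%), compared with 14.7% of the other genes. All 4 standard libraries came from lane 6, so lane does not separate them. The combination of weeping tree 4 above weeping tree 1 with standard tree 7 above standard tree 9 held in 128 members (74.9%), against 37.6% of the other genes.

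**Figure D3:**
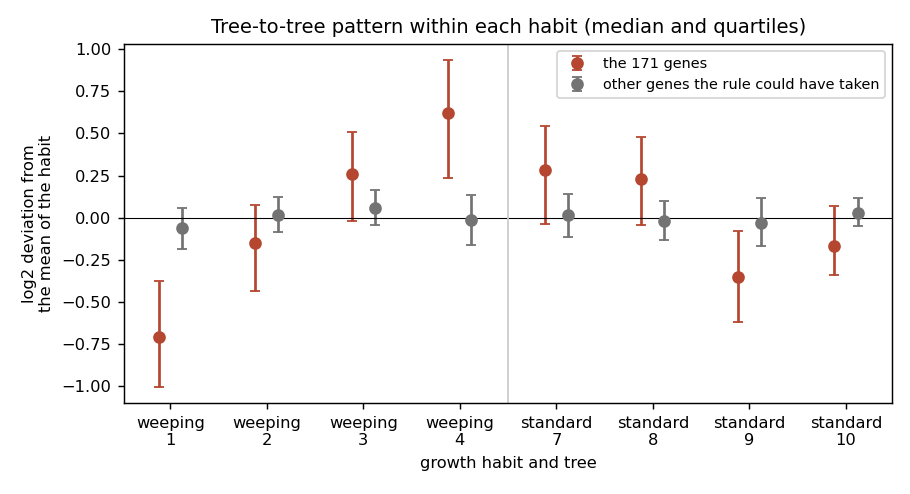
Deviation of genes from the mean of their own habit, in log2(CPM + 0.5), for each tree (points at the median, bars over the quartiles), with members beside the other genes that could have been taken. The members' medians run between -0.71 in weeping tree 1 and 0.62 in weeping tree 4, while the other genes' medians run between -0.062 in weeping tree 1 and 0.058 in weeping tree 3.

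The members spread more over trees than other genes in both habits. The coefficient of variation had a median of 0.611 over weeping trees and 0.347 over standard trees, against 0.131 and 0.127 in the other genes. The highest weeping tree stood a median 4.78 times above the lowest, and the highest standard tree 2.25 times, with 1.34 and 1.33 in the other genes. The variation was the larger among weeping trees in 142 members (83.0%) and in 52.5% of the other genes. It was not confined to low counts: the 15 members of 100 CPM or more in standard trees had medians of 0.871 in weeping trees and 0.416 in standard trees, against 0.1004 and 0.111 in other genes at that level.

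In 2 other sets taken on the same contrast, mostly the same trees lay nearest to the other habit. On scaffolds 2 and 3 the same limits took 43 genes, except that the most abundant genes were not left out there. These 43 had 56.9% of within-habit variance on the first component. Weeping tree 4 was highest in 28 of them (65.1%) and standard tree 9 lowest in 24 (55.8%). The 23 genes taken with the habits exchanged had 63.5% on the first component, but its weights differed from the members'. The largest was -0.77 in standard tree 9, with 0.38 in standard tree 7, -0.35 in weeping tree 1 and 0.15 in weeping tree 4. Taken alone, their weeping trees had 69.1% on 1 component and their standard trees 78.7%, against 76.7% and 51.1% in the members. In these 23 genes the trees were turned round, with weeping tree 4 lowest in 16 (69.6%) and standard tree 9 highest in 18 (78.3%). In each of these sets the trees nearest to the other habit were therefore mostly weeping tree 4 and standard tree 9. Closeness of whole libraries was read as chi-square per degree of freedom over genes of all scaffolds, lower for closer pairs. Weeping tree 4 had 31.4 with standard tree 10 and 32.5 with standard tree 9. It had 40.5, 45.7 and 52.3 with weeping trees 3, 2 and 1. With standard trees 8 and 7 it had 53.9 and 54.0, farther than any weeping tree. Its nearness to standard trees 9 and 10 was thus not confined to genes taken on the contrast.

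Each library was also left out in turn, the conditions were applied to the other 7, and the library left out was compared with the other habit. The libraries of the other habit had taken part in the choice, and the comparison shares over all genes had no such choice. The shares are therefore a description and no separate support for the difference. Without weeping tree 1 the conditions took 136 genes, and weeping tree 1 lay below every standard tree in 97.1% of them, against 35.2% of all genes that could have been taken. Left out in turn, weeping tree 2 lay below every standard tree in 98.7% of 159 genes, weeping tree 3 in 91.7% of 193, and weeping tree 4 in 75.5% of 298. Standard tree 7 lay above every weeping tree in 92.9% of 154 genes, standard tree 8 in 98.1% of 155, standard tree 9 in 80.4% of 235 and standard tree 10 in 96.7% of 184. Over all genes that could have been taken, these shares were 20.6 to 30.5%. The shares were lowest for weeping tree 4 and standard tree 9. These lists shared 130 to 168 genes with the 171 members and are not separate sets.

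The best expressed member, ppa013557m.g, lay on scaffold 5 at 14377792 to 14378313 and spanned 522 bp. It had 33.5, 67.2, 104 and 250 CPM in weeping trees 1, 2, 3 and 4, against 899, 439, 343 and 424 CPM in standard trees 7, 8, 9 and 10. Weeping tree 4 and standard tree 9 came closest to each other. The means were 114 ± 95.2 CPM in weeping trees and 526 ± 252 CPM in standard trees (SD, n = 4 each), a standard-to-weeping ratio of 4.63. The ratio was 7.71 without weeping tree 4 and 3.54 without standard tree 7.

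The 15 members of 100 CPM or more in standard trees followed the same order more steeply. Their median was 13.2, 23.2, 53.5 and 109 CPM in weeping trees 1, 2, 3 and 4, against 362, 248, 225 and 200 CPM in standard trees 7, 8, 9 and 10. Weeping tree 4 was highest of its habit in 11 of the 15, and standard tree 7 in 11. The other 156 members were more evenly topped, by standard tree 7 in 66 and by standard tree 8 in 71. The 15 well expressed members made up most of the summed level, at 283, 531, 995 and 1859 CPM in weeping trees 1, 2, 3 and 4 against 6140, 4062, 3261 and 3446 CPM in standard trees 7, 8, 9 and 10.

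The 2 largest ratios came from weakly expressed genes and shifted when single trees were left out. The highest, 13.7, belonged to ppa020556m.g, on scaffold 1 at 36458768 to 36459043. It had 0.625, 0.649, 0.615 and 1.23 CPM in weeping trees 1, 2, 3 and 4, against 10.1, 3.54, 26.6 and 2.47 CPM in standard trees 7, 8, 9 and 10. Standard tree 9, lowest in most members, was highest here, and without it the ratio was 6.86. On scaffold 1 at 14137902 to 14139738, a gene with a ratio of 12.2 had 0.104, 0.139, 0.056 and 0.705 CPM in weeping trees 1, 2, 3 and 4, against 3.57, 3.21, 0.869 and 4.58 CPM in standard trees 7, 8, 9 and 10. Weeping tree 4 set most of its weeping mean, and without that tree the ratio was 30.7. Its lowest ratio with 1 tree left out was 9.67, without weeping tree 3, so this large ratio did not rest on a single tree.

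In 5 members a weeping library had no read. The gene on scaffold 6 at 22430696 to 22433815 had 0, 4, 10 and 14 reads in weeping trees 1, 2, 3 and 4, against 111, 45, 21 and 33 in standard trees 7, 8, 9 and 10. The gene on scaffold 5 at 599224 to 600697 had 13, 0, 0 and 51 reads in the weeping trees, against 225, 64, 56 and 75 in the standard trees, in the same order of trees. A count of 0 allows up to 0.156 CPM in weeping tree 1, 0.139 in weeping tree 2 and 0.168 in weeping tree 3, for counting error alone. Only 2 members had 10 reads or fewer in every weeping library, so most still had reads in weeping shoot tips.

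Not all members followed the common order. The gene nearest to the members' median pattern, on scaffold 1 at 28212829 to 28214028, had 2.50, 4.77, 5.81 and 9.41 CPM in weeping trees 1, 2, 3 and 4, against 28.3, 25.5, 15.5 and 22.3 CPM in standard trees 7, 8, 9 and 10. The gene farthest from it, on scaffold 1 at 37498626 to 37498826, had 0.729, 0.602, 0.615 and 0.647 CPM in the weeping trees and 2.11, 2.03, 2.99 and 1.81 CPM in the standard trees, in the same order of trees. Here weeping tree 1 was highest of its habit and standard tree 9 highest of its own. Likeness was the distance between unit-scaled deviations over the 8 trees. Some members were uneven over weeping trees and nearly even over standard trees: the gene on scaffold 6 at 27372790 to 27373775 had 4.27, 9.59, 12.3 and 22.3 CPM in weeping trees 1, 2, 3 and 4, against 49.5, 49.2, 45.9 and 43.7 CPM in standard trees 7, 8, 9 and 10.

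The members topped by standard tree 7 and those topped by standard tree 8 differed in other ways. Weeping tree 4 was highest in 63 of the 77 topped by tree 7 (81.8%) and in 31 of the 74 topped by tree 8 (41.9%), where weeping tree 3 was highest in 30. The median span was 1333 bp in the genes topped by tree 7 and 1888.5 bp in those topped by tree 8. Of the 15 well expressed members, 11 were topped by tree 7 and 3 by tree 8. Scaffold 1 held 29 of the genes topped by tree 7 and 12 of those topped by tree 8, and scaffold 4 held 7 and 16. This division was made after the values had been seen and was not tested.

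The members were short genes. The table gives the whole span of each gene, introns included, and its median was 1527 bp in the members (quartiles 849 and 2456 bp, range 201 to 7994 bp), against 2759.5 bp in the other genes. Members made up 3.86% of the genes under 1 kb that could have been taken (51 of 1321), 2.17% at 1 to 2 kb, 1.04% at 2 to 4 kb and 0.266% at 4 kb or more (9 of 3381). They were also weakly expressed, with 3.97% of genes at 2 to 5 CPM, 1.59% at 5 to 20 CPM, 0.594% at 20 to 100 CPM and 1.07% at 100 CPM or more. Among the 15 best expressed members 10 spanned under 1 kb, against 6.83% of all genes at that level, so short spans were not limited to low levels. The part of read number in this result was not tested beyond these classes of level.

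**Figure D4:**
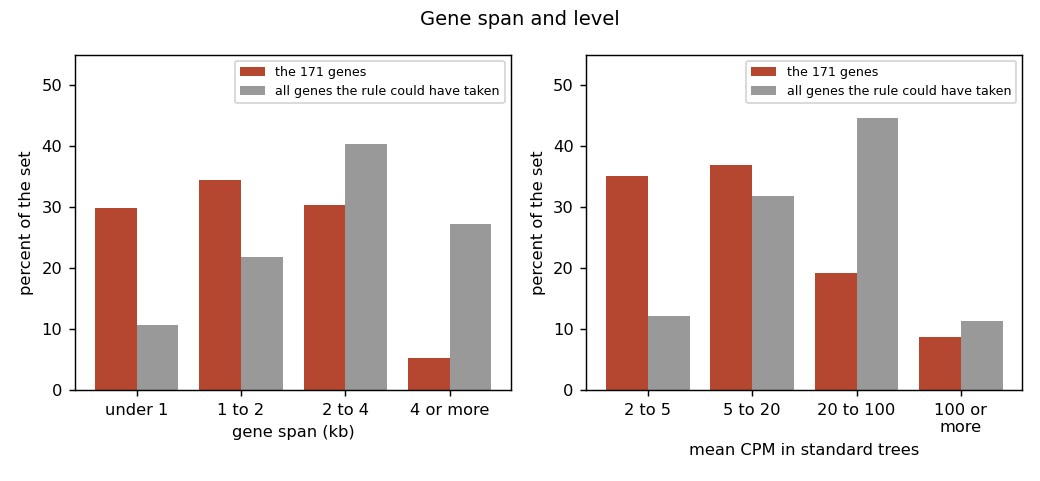
Percent of the members, and of all genes that could have been taken, in each class of gene span in kb and of mean CPM in standard trees. Genes under 1 kb make up 29.8% of the members and 10.6% of all genes, and genes of 4 kb or more make up 5.26% and 27.2%.

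The members lay on all 6 scaffolds, about in proportion to the genes that could have been taken. Scaffold 1 held 52 (1.44% of its genes), scaffold 4 held 24 (1.37%), scaffold 5 held 21 (1.35%), scaffold 6 held 39 (1.77%), scaffold 7 held 18 (1.05%) and scaffold 8 held 17 (1.07%), with 1.38% over all. On scaffold 1 their midpoints ran between 2.59 and 44.2 Mb, and its last gene ended at 46.9 Mb. On scaffold 4 they ran between 0.271 and 29.6 Mb, and its last gene ended at 30.2 Mb. Groups of neighbouring members lay there at 8367087 to 8409381, 8518559 to 8550003 and 9365859 to 9395860. How evenly members lay along each scaffold was not measured against the genes that could have been taken.

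Neighbouring members were frequent. The midpoint lay within 100 kb of another member's in 66 members (38.6%), whereas 18.5% of the other genes had a member that near. Directly adjacent members numbered 17 (9.94%), and 1.46% of the other genes stood next to a member. These 66 fell into 30 groups, of which 25 were pairs and 5 held 3 or 4 genes. Neighbours can be copies of 1 gene that share reads, and 3 members overlapped another gene in the table. Whether reads were counted by strand is not given in the sources used here.

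The group of 4 lay on scaffold 1 within 63.3 kb, with spans of 511 to 615 bp. The gene at 9029561 to 9030071 had 67.1, 86.5, 81.5 and 179 CPM in weeping trees 1, 2, 3 and 4, against 453, 283, 270 and 306 CPM in standard trees 7, 8, 9 and 10. The gene at 9047449 to 9048050 had 10.7, 42.7, 118 and 182 CPM in the weeping trees and 362, 333, 331 and 336 CPM in the standard trees, in that order of trees. Its highest value was 17.0 times its lowest in weeping trees and 1.096 times its lowest in standard trees. The gene at 9067543 to 9068055 had 2.97, 3.98, 9.33 and 18.5 CPM in weeping trees 1, 2, 3 and 4, against 67.2, 40.1, 28.1 and 38.4 CPM in standard trees 7, 8, 9 and 10. The gene at 9092283 to 9092897 had 1.61, 10.7, 93.3 and 85.2 CPM in the weeping trees and 441, 191, 226 and 165 CPM in the standard trees, in that order of trees. All 4 were lowest in weeping tree 1, and 3 were highest of their habit in weeping tree 4. Of the 3 other genes between them, 2 had no reads and the third had a ratio of 4.27 with overlapping libraries.

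Another group on scaffold 1 lay at 40260040 to 40341948 with 12 other genes between. Its last gene, at 40341518 to 40341948, had the highest level per length of any member in standard trees, with a mean of 203 RPKM in weeping trees and 966 RPKM in standard trees. It had 17.8, 45.8, 106 and 232 CPM in weeping trees 1, 2, 3 and 4, against 766, 463, 290 and 392 CPM in standard trees 7, 8, 9 and 10. Its neighbour at 40330298 to 40330746 had 3.33, 9.08, 146 and 175 CPM in the weeping trees and 900, 345, 345 and 285 CPM in the standard trees, in that order of trees. Both had the lane 6 weeping trees lowest and standard tree 7 highest. Between 40304211 and 40335413 lay 3 more genes of 448 to 472 bp, with ratios of 5.18 to 6.36. They were no members because only 30.4 to 39.5% of their reads mapped to 1 place, so reads may be divided among these genes. For the neighbour at 40330298, 80.1% of reads mapped to 1 place, and the ratio was 5.67 on those reads and 5.62 on all reads.

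A run of 3 directly adjacent members stood on scaffold 6 within 14.3 kb, at 18058388 to 18072715. The first had 0.885, 2.50, 3.02 and 6.88 CPM in weeping trees 1, 2, 3 and 4, against 11.7, 13.4, 7.98 and 11.9 CPM in standard trees 7, 8, 9 and 10. The last had 6.30, 13.9, 11.4 and 36.3 CPM in the weeping trees and 53.1, 73.1, 47.7 and 62.9 CPM in the standard trees, in that order of trees. Weeping tree 1 was lowest and weeping tree 4 highest in all 3 genes. The remaining groups of 3 lay on scaffold 4 within 42.3 kb, with ratios of 3.71, 4.82 and 7.48, and on scaffold 6 within 68.7 kb, with ratios of 6.53, 3.60 and 3.85. In the scaffold 6 group, the 4 genes in between had ratios of 1.06 to 1.13, so the difference did not extend over the whole stretch.

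**Figure D5:**
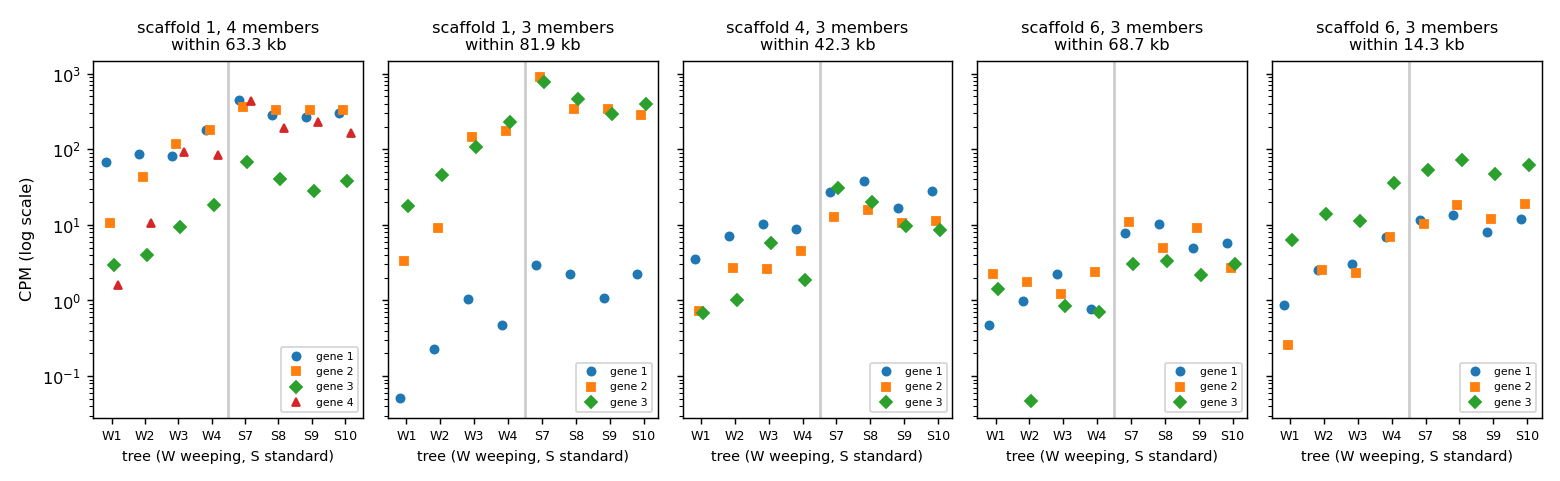
CPM on a log scale in each tree for the 5 groups of 3 or more members with midpoints within 100 kb of the next, with genes numbered along the scaffold. In the group of 4, the gene at 9092283 has 1.61 CPM in weeping tree 1 and 441 CPM in standard tree 7.

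The list was much the same without reads that map to several places. All reads mapped to 1 place in 93 members, and under 90% did in 34. On reads mapping to 1 place alone the ratio had a median of 4.17 and a lowest value of 2.92. The conditions applied to those reads took 167 genes, of which 162 were among the 171.

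The limits cut through a continuous range. Nearest inside the fold limit were genes with ratios of 3.00, 3.03 and 3.03, and nearest outside it were genes with 2.99, 2.96 and 2.96. Nearest inside the level limit were standard means of 2.02, 2.03 and 2.03 CPM, and nearest outside it 1.95, 1.87 and 1.85 CPM.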

How the data were processed

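The authors deposited 1 table of read counts per gene for the 8 libraries, as total exon reads and as unique exon reads (those mapping to 1 place), per the file headers. The RPKM values are the authors' own, and per the file headers the reads had been trimmed before mapping. Aligner, genome build and annotation: not given in the sources used here. Positions refer to the table's own scaffolds and are counted from 1. RNA was extracted with 2% PVP in the lysis buffer, per the labels' protocols. Another 132 columns were not used.

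CPM was total exon reads over the library's sum. The members and the lists were chosen with earlier results of these data known. Principal components used log2(CPM + 0.5) centred by habit. The named genes were the members of highest level, largest ratio, widest and narrowest spread over standard trees, groups of 3 or more neighbours and the closest pairs, those nearest the limits, those with 0 reads in a weeping library, and those most and least like the median pattern; a selection of them is printed. With 0 of 27864 identifiers matched to the RefSeq table, 2 identifiers are printed, and no sequence or gene role could be given. The closest pair of libraries, weeping trees 2 and 3, had a chi-square per degree of freedom of 16.2 over genes, so each library counted as a replicate.

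For scale, edgeR 4.0.16 in R 4.3.3 was run with filterByExpr at a minimum count of 10, TMM scaling and the quasi-likelihood test, adjusted over 18520 genes; DESeq2 1.42.0 was an alternative. The edgeR step and the member rule were tested on simulated data. Other alternatives changed the scaling, the limits, the reads used, the filter, the pseudocount and the window, and left out each tree. Python 3.11.15 and matplotlib 3.10.9 drew the figures.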

Additional observations from a re-analysis of the deposited data

Results flagged for a closer look

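For each named gene and for the summed level, the 4 trees of a habit were searched for 1 tree standing apart, as the gap between that tree and the nearest other over the whole range of the habit. In 9 of 98 such groups of 4 the share was past Dixon's 95% limit. Chance passes about 1 in 20 among independent groups that were not chosen for their spread. Some of these genes were named for their spread or ratio, and the members moved together over trees. The count is therefore not set against that rate.

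Standard tree 7 stood high in 4 genes: at 40330298 on scaffold 1 with a share of 0.902 (900 CPM), in a second gene with 0.846 (362 CPM), in 1 more with 0.861 (66.6 CPM) and in another with 0.919 (12.2 CPM). The gene with 0.846 is the one at 9047449 in the group of 4, where the standard trees spanned 331 to 362 CPM. Standard tree 8 stood high in 2 genes, with shares of 0.884 (12.6 CPM) and 0.836 (2.98 CPM).

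Weeping tree 4 stood high in ppa020556m.g, with a share of 0.945 (1.23 CPM), and at 14137902 on scaffold 1, with 0.872 (0.705 CPM). Weeping tree 3 stood low in 1 gene, with a share of 0.923 (0.782 CPM). No explanation of these values was tested.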

How the results depend on the processing

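TMM scaling and DESeq2's size factors each took 171 genes, of which 170 were among the 171 members. The number taken was 366 at a fold limit of 2, 92 at a fold limit of 4, 111 at a level limit of 5 CPM and 385 with lane 6 libraries alone, where only 2 weeping trees remain. Leaving out 1 tree gave 136 to 298 genes, the most without weeping tree 4. edgeR called 141 members lower (6.18% of all tested genes) and 1 at an adjusted p of 0.01 (0.027%), and DESeq2 called 165 (9.87%). With a tree left out edgeR called 3 to 158 (0.059 to 12.1% of all tested genes), the fewest without weeping tree 2. The share on the first component was 61.6%, 53.3% with each gene scaled to unit variance and 53.7 to 67.4% with a tree left out. Members with a neighbouring member numbered 66 within 100 kb, 21 within 20 kb and 17 directly adjacent. The ratio of summed levels was 4.49, and 3.71 to 6.27 with a tree left out. The leave-one-out of the summed level and the tree counts on other reads and scaling were added after seeing the data. No paired analysis was possible because the weeping and standard trees share no tree number. With 4 trees a habit and 17.0 to 21.6 reads per CPM, members near 2 CPM rest on few reads in weeping libraries, and 4 trees are too few for correlations between genes within a habit.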
